A study of Mus musculus with 12 samples.

Results

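The comparison described here set N2a cells treated with CON-BDEV against N2a cells treated with Vehicle, 4 libraries a group and 8 of the 12 libraries in the study. N2a is an established mouse neuroblastoma line, and BDEV stands for extracellular vesicles prepared from brain. The study treated the cells with 2 kinds of such vesicles, CON-BDEV and SE-BDEV, the title naming status epilepticus, a prolonged seizure. The labels do not spell out CON. Nor do they give a dose, an exposure time, or the age, sex or pooling of the brains, what the vehicle contained or whether replicates were separate cultures or vesicle preparations. The p-values below therefore measure the spread between these libraries only, which may be technical, and the result concerns 1 tumour-derived line that does not stand for neurons of the brain. Genes entered the comparison when their mean over the 8 libraries was at least 1 FPKM (fragments counted for a gene divided by its length and by its library's depth). That held for 11320 of 24318 rows of the table. Of the other 12998 rows, 6912 were at 0 in all 8 libraries.

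Extracellular vesicles are membrane-bound particles that cells release and that carry lipids, proteins and RNA into the cells that take them up. N2a cells descend from a tumour of the sympathetic lineage. In that lineage, transcription factors such as Phox2a, Hand2 and Gata3 drive the enzymes that make noradrenaline, which is stored with granins in dense-core granules. Cells that take up membrane cholesterol lower the transcription of their own sterol and fatty acid enzymes through the SREBP factors. In these data 43 of the 78 lipid genes tested fell and none rose, by a median of 0.50 on the log2 scale among those that fell. The account below is of the genes outside those lists, and phosphatidate phosphatase Lpin1 (12.5 ± 0.578 FPKM in Vehicle and 7.02 ± 0.435 in CON-BDEV, SD, n = 4 each), farnesyl diphosphate synthase Fdps (237 ± 6.89 and 136 ± 16.3) and lanosterol synthase Lss (29.6 ± 1.69 and 16.8 ± 1.64) serve only as a scale for it.

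The cells carried the markers of a noradrenergic neuroblastoma and next to none of brain tissue. In Vehicle, Hand2 stood at 158 ± 9.07 FPKM, Phox2a at 79.7 ± 3.01, the neurofilament-related peripherin Prph at 839 ± 13.9 and stathmin Stmn2 at 158 ± 4.69 (SD, n = 4). Of 74 markers of astrocytes, oligodendrocytes, microglia and blood, vessels and choroid plexus, and forebrain neurons, 13 reached the 1 FPKM mean, none passed the limma test, and 1 had an unadjusted p under 0.05; the authors' table called none. The oligodendrocyte genes Olig1 and Opalin, the microglial P2ry12, the globins Hba-a1 and Hbb-b1, the endothelial Cldn5 and the forebrain factor Neurod6 were at 0 in all 8 libraries, and the astrocyte filament Gfap reached at most 0.0265 FPKM. The summed astrocyte markers were lower with CON-BDEV (17.4 to 19.8 FPKM against 21.0 to 23.9 in Vehicle), of which the transcription factor Sox9 made up most (15.3, 14.6, 12.8 and 14.4 against 18.3, 17.3, 15.8 and 15.5 FPKM; adjusted p = 0.0992). The other marker sums overlapped between the groups: oligodendrocytes 19.1 to 20.7 against 19.5 to 20.7 FPKM, microglia and blood 1.90 to 2.58 against 1.45 to 2.17, vessels and choroid plexus 16.2 to 17.5 against 14.9 to 17.4, and forebrain neurons 12.3 to 14.4 against 13.3 to 15.3. Estimated depth was 12160000 to 13390000 fragments in CON-BDEV and 13930000 to 14910000 in Vehicle, so every CON-BDEV library was shallower than every Vehicle library. The part of this difference, and of the astrocyte marker sum, in the results was not tested. Each library correlated at 0.996 to 0.998 with the mean of its group mates on the log2 scale.

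Outside the lipid lists, 278 of 11242 genes changed at an adjusted p of at most 0.05, 115 rising and 163 falling. That is 2.47% of the genes tested (1.02% rose and 1.45% fell), beside 2.84% when the lipid genes are included. With lipid genes included, 1.02% rose and 1.82% fell, and the calls in each list below are to be read beside these shares. Before adjustment, 2166 of all 11320 genes tested had a limma p under 0.05. The changes were small: the median size was 0.22 on the log2 scale, against 0.50 for the lipid genes that fell, and 174 of the 278 differed by less than 1.2-fold in the ratio of mean FPKM. By the same ratio 6 rose and 5 fell by 1.5-fold or more. Every one of the 278 had its 4 CON-BDEV values all above or all below its 4 Vehicle values, a separation that 11.9% of all genes tested showed (5.68% higher and 6.24% lower with CON-BDEV). Among genes with a mean of 1 to 5 FPKM 1.03% were called, with a median size of 0.39, and among genes at 100 FPKM or more 5.04%, with a median size of 0.16. Log2 fold changes, other than those from the authors' table, are on log2(FPKM + 1), which understates those of low genes, and in a bulk sample fewer cells with a transcript and less transcript per cell cannot be told apart.

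**Figure D1:**
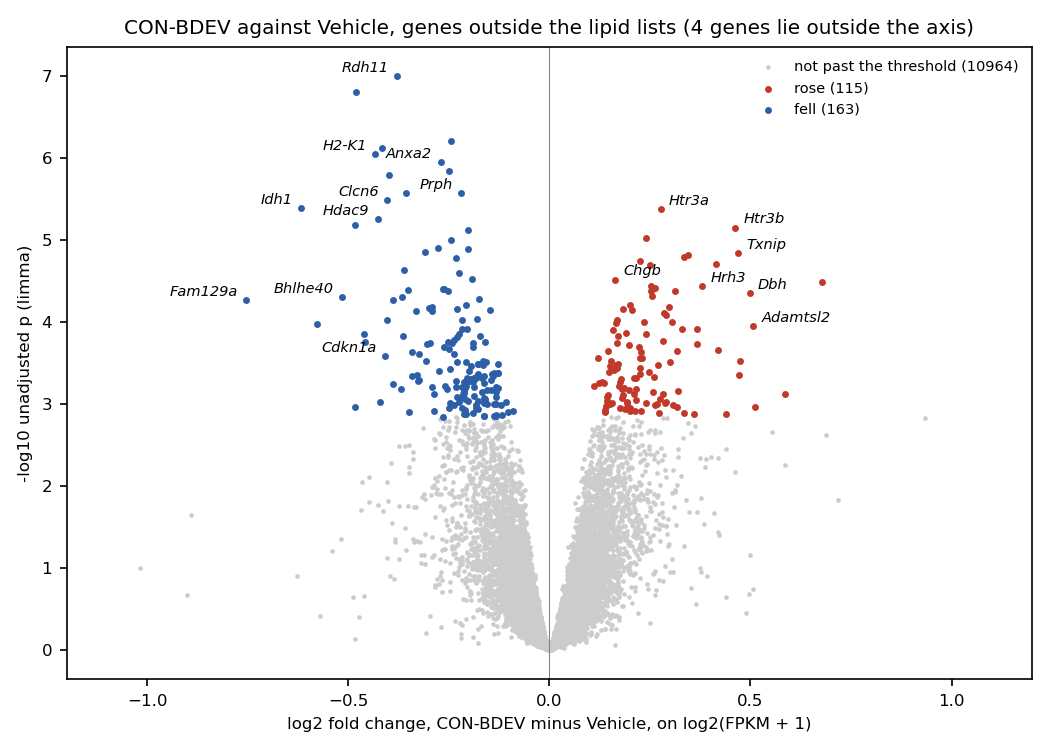
Log2 fold change (x axis, CON-BDEV minus Vehicle on log2(FPKM + 1)) against −log10 of the unadjusted limma p (y axis) for the 11242 genes outside the lipid lists. Red points are the 115 genes that rose and blue points the 163 that fell at an adjusted p of at most 0.05; 4 uncalled genes lie beyond the x axis.

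The number of calls depended on single libraries. It was 278 with all 8, and 512, 371, 161 or 118 without CON-BDEV replicate 1, 2, 3 or 4, and 97, 127, 104 or 124 without Vehicle replicate 1, 2, 3 or 4. Of the 278 genes, 80 (34 that rose and 46 that fell) stayed past the threshold whichever library was left out; of the 88 genes named below as changed by the rule in the methods, 43 did. For each other gene given as called the number of those 8 fits that kept it is given as "of 8".

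Several genes of noradrenergic identity and catecholamine synthesis rose. Of 20 tested members of that list 6 rose and none fell, beside the 1.02% of genes that rose overall. Their median log2 fold change was 0.09, against 0.0043 over all genes tested. Dopamine beta-hydroxylase Dbh, which turns dopamine into noradrenaline (mm9 chr2:27021027-27038724), stood at 5.96, 6.94, 6.66 and 7.53 FPKM in CON-BDEV replicates 1 to 4 and at 3.87, 4.70, 4.67 and 4.77 in Vehicle replicates 1 to 4. The lowest treated library lay above the highest Vehicle library, and the rise was log2 fold change 0.50 ± 0.08 (SE), adjusted p = 0.00684. Aromatic amino acid decarboxylase Ddc, the step before it, was low in both groups, at 2.06, 1.94, 1.93 and 2.27 against 1.37, 1.12, 1.27 and 1.37 FPKM (log2 fold change 0.42 ± 0.08 (SE), adjusted p = 0.0178, kept in 5 of 8). Its locus overlaps an uncharacterised transcript and how strand was used in counting is not stated, so part of that value may belong to the neighbour. Tyrosine hydroxylase Th, the rate-limiting enzyme of the pathway, went from 4.77 ± 0.316 to 5.64 ± 0.679 FPKM with overlapping groups and did not pass the test (log2 fold change 0.20, adjusted p = 0.189).

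Transcription factors of the same lineage rose too. Phox2a, a homeodomain factor required for noradrenergic identity, measured 98.5, 92.2, 90.8 and 98.8 FPKM with CON-BDEV and 83.6, 80.4, 77.95 and 76.7 with Vehicle (log2 fold change 0.25 ± 0.04 (SE), adjusted p = 0.0066); its locus overlaps that of Inppl1. Gata3, a zinc-finger factor of sympathetic neurons, measured 8.94, 10.3, 9.56 and 10.99 against 7.24, 7.15, 8.10 and 7.38 FPKM (log2 fold change 0.37 ± 0.06 (SE), adjusted p = 0.0122). Insm1, a zinc-finger factor of neuroendocrine differentiation, measured 21.7, 23.1, 20.7 and 23.2 against 17.7, 18.5, 17.9 and 16.6 FPKM (log2 fold change 0.31 ± 0.05 (SE), adjusted p = 0.0066). In none of the 3 did the groups overlap. Hand2, named after its values were seen, rose from 158 ± 9.07 to 187 ± 6.30 FPKM (log2 fold change 0.24, adjusted p = 0.0135). Summed over the whole list of 31 genes, the level was 826 to 858 FPKM with CON-BDEV and 774 to 796 with Vehicle. Hand2 and Phox2a, given above, hold most of that difference.

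Secretory granule genes split. The granins, acidic proteins that pack the granule core, rose for chromogranin B and A and fell for secretogranin II. Chgb measured 265, 265, 258 and 253 FPKM against 232, 233, 231 and 234 (log2 fold change 0.16 ± 0.02 (SE), adjusted p = 0.00569). Chga measured 191, 179.5, 174 and 180.1 against 151, 159, 157 and 162 (log2 fold change 0.20 ± 0.03 (SE), adjusted p = 0.00876). Both separated fully by group, and the authors' table called neither. Scg2 instead fell from 162 ± 1.72 to 147 ± 4.52 FPKM (log2 fold change −0.14, adjusted p = 0.0264, 2 of 8). The granule membrane protein Ptprn2 fell from 6.22 ± 0.291 to 5.18 ± 0.170 (log2 fold change −0.22, adjusted p = 0.0401), a call that held in 0 of 8 fits with a library left out, and its locus overlaps a predicted gene. The list's 13 tested members had a median of −0.07 with 10 below 0, so the granule genes as a group did not follow Chga and Chgb.

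Receptors for fast and slow transmitters were among the genes with the smallest p-values of those that rose. Of 32 tested channels and receptors, 5 rose and 2 fell, beside 1.02% and 1.82% of all genes tested, with a median of 0.06. Both subunits of the ionotropic serotonin receptor rose. Htr3a, the subunit that can form the channel alone (mm9 chr9:48707318-48719204), measured 112, 106, 114 and 108 FPKM with CON-BDEV and 87.5, 89.6, 93.5 and 92.97 with Vehicle (log2 fold change 0.28 ± 0.03 (SE), adjusted p = 0.0017). Htr3b, which joins it in mixed channels and lies beside it on the chromosome (chr9:48743113-48773095), measured 5.02, 5.19, 5.42 and 5.32 and 3.48, 3.30, 3.44 and 3.90 FPKM (log2 fold change 0.46 ± 0.06 (SE), adjusted p = 0.00233). The Htr3b groups lay more than 1 FPKM apart at their nearest values, and the Htr3a level stayed far above that of Htr3b in all libraries. The histamine H3 receptor Hrh3, an inhibitory G-protein coupled receptor, measured 5.90, 5.61, 6.26 and 6.35 against 4.15, 4.74, 4.38 and 4.36 FPKM (log2 fold change 0.38 ± 0.06 (SE), adjusted p = 0.00652), again without overlap. The cannabinoid receptor Cnr1 rose from 31.7 ± 0.141 to 37.3 ± 1.17 FPKM (log2 fold change 0.23, adjusted p = 0.00401). Named after their values were seen, the nicotinic subunit Chrna3 rose from 38.1 ± 2.02 to 45.6 ± 0.897 FPKM (log2 fold change 0.25, adjusted p = 0.00732), the background potassium channel Kcnk3 rose from 16.6 ± 0.538 to 19.6 ± 1.06 (log2 fold change 0.23, adjusted p = 0.0208, 5 of 8), and the N-type calcium channel Cacna1b fell from 10.3 ± 0.552 to 8.73 ± 0.186 (log2 fold change −0.21, adjusted p = 0.0341, 3 of 8).

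Beyond the receptors, an exchanger of the endosome fell. Clcn6, a chloride-proton exchanger of late endosomes (mm9 chr4:147380593-147412876), measured 17.4, 19.02, 19.97 and 18.2 FPKM with CON-BDEV and 26.3, 24.98, 24.02 and 24.5 with Vehicle (log2 fold change −0.40 ± 0.05 (SE), adjusted p = 0.0014). All treated values were below all Vehicle values. At the presynaptic terminal, synapsin Syn2 rose from 38.7 ± 0.984 to 44.3 ± 1.41 FPKM (log2 fold change 0.19, adjusted p = 0.0134, its locus overlapping Timp4), while the priming factor Unc13a (38.4 ± 0.832 to 34.4 ± 1.33; log2 fold change −0.15, adjusted p = 0.0406, 1 of 8) fell. Of 27 tested genes of vesicle release 1 rose and 2 fell, and their median log2 fold change was 0.01. Of the synaptotagmins, a family that includes calcium sensors of vesicles, Syt6 (50.97 ± 0.479 to 60.9 ± 2.95 FPKM; log2 fold change 0.25, adjusted p = 0.00429) and Syt17 (12.5 ± 0.624 to 16.1 ± 2.04; log2 fold change 0.33, adjusted p = 0.047, 1 of 8) rose. No other tested member was called. Syt5 (log2 fold change −0.19, adjusted p = 0.0985), Syt4 (−0.11) and Syt11 (−0.02) were lower, and Syt7 (0.12), Syt1 (0.03) and Syt14 (0.02) higher.

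**Figure D2:**
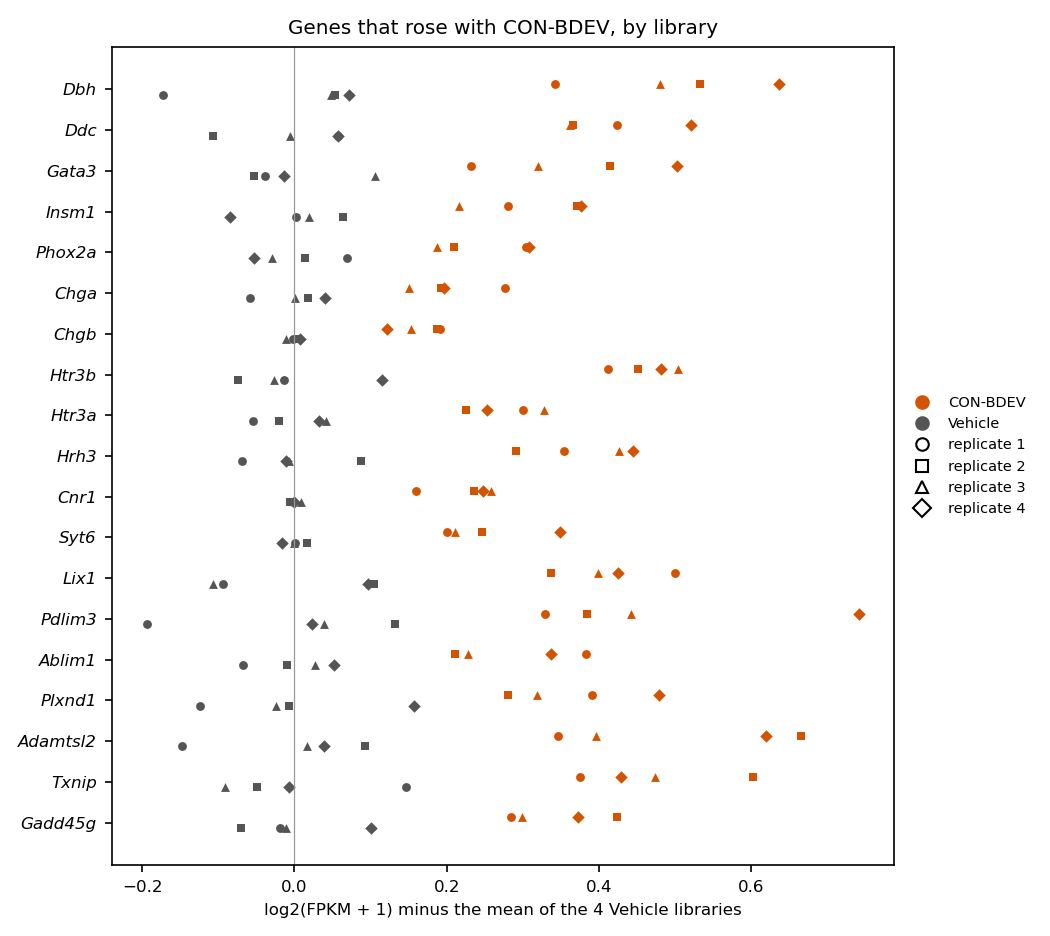
Log2(FPKM + 1) of 19 genes that rose, in each library, minus the mean of the 4 Vehicle libraries (x axis), with CON-BDEV in orange, Vehicle in grey and the marker shape giving the replicate number. Every orange point of a gene lies to the right of its grey points; Pdlim3 in CON-BDEV replicate 4 is the farthest.

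Genes that bind actin and shape contractile structures moved in both directions. PDZ-LIM proteins tether enzymes and receptors to actin filaments. Pdlim3 measured 18.6, 19.4, 20.2 and 25.1 FPKM with CON-BDEV and 12.7, 16.1, 15.05 and 14.9 with Vehicle (log2 fold change 0.47 ± 0.09 (SE), adjusted p = 0.0219, 5 of 8), replicate 4 being the highest of the treated libraries. Pdlim7 rose from 60.2 ± 0.572 to 67.3 ± 1.64 FPKM (log2 fold change 0.16, adjusted p = 0.0124). The actin-binding LIM protein Ablim1 rose from 17.1 ± 0.650 to 21.2 ± 1.29 (log2 fold change 0.29, adjusted p = 0.00947). Tagln2, which bundles actin, fell from 396 ± 5.66 to 351 ± 10.9 FPKM (log2 fold change −0.17, adjusted p = 0.0075). With Cnn3, a calponin named after its values were seen (149 ± 2.37 to 134 ± 5.19; log2 fold change −0.15, adjusted p = 0.0324, 2 of 8), that made 3 rises and 2 falls among 23 tested members, with a median of 0.06.

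Guidance receptors and one matrix protein rose. Of 28 tested guidance ligands and receptors, 3 rose and none fell, beside 1.02% and 1.82% of all genes tested, with a median of 0.05. The semaphorin receptor Plxnd1 measured 9.18, 8.43, 8.68 and 9.81 FPKM against 6.12, 6.72, 6.63 and 7.65 (log2 fold change 0.37 ± 0.07 (SE), adjusted p = 0.0158, 5 of 8), without overlap. Its co-receptor Nrp1 rose from 26.03 ± 1.07 to 30.6 ± 1.68 (log2 fold change 0.23, adjusted p = 0.0266, 2 of 8) and the Robo ligand Slit3 from 30.5 ± 0.691 to 35.8 ± 2.21 (log2 fold change 0.22, adjusted p = 0.0238, 2 of 8). Adamtsl2, a secreted matrix glycoprotein related to the ADAMTS proteases, had the largest rise of the genes named by the rule (mm9 chr2:26934901-26964133). It measured 4.09, 5.35, 4.27 and 5.15 FPKM with CON-BDEV and 2.61, 3.27, 3.05 and 3.11 with Vehicle (log2 fold change 0.51 ± 0.09 (SE), adjusted p = 0.0118). It was the 1 gene called among 27 matrix genes, whose median was −0.02. Other rises named by the rule were Lix1 (19.5 ± 1.65 to 26.3 ± 1.29; log2 fold change 0.42, adjusted p = 0.00419), the carboxypeptidase Cpa4 (4.41 ± 0.2696 to 5.80 ± 0.291; log2 fold change 0.33, adjusted p = 0.0122), the tubby protein Tub (59.1 ± 1.48 to 70.01 ± 1.98; log2 fold change 0.24, adjusted p = 0.00277, overlapping Ric3), and the DNA exonuclease Trex1 (4.38 ± 0.537 to 5.89 ± 0.569; log2 fold change 0.36, adjusted p = 0.0473, 1 of 8).

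Several regulators that respond to nutrients or signals changed as single members of their lists. Txnip, an alpha-arrestin that binds thioredoxin and restrains glucose uptake, measured 11.9, 14.1, 12.9 and 12.4 FPKM with CON-BDEV and 10.04, 8.64, 8.36 and 8.92 with Vehicle (log2 fold change 0.47 ± 0.06 (SE), adjusted p = 0.00358). The groups did not overlap. None of the other 9 tested genes of its list was called, and 1 gene of the 10, Txnip itself, had an unadjusted p under 0.05. That list holds glucose-sensing factors and thioredoxin genes beside targets, and some of its targets stayed under 1 FPKM and were not tested. Gadd45g, a growth-arrest gene inducible by stress, measured 20.3, 22.5, 20.5 and 21.6 against 16.2, 15.6, 16.3 and 17.7 FPKM (log2 fold change 0.35 ± 0.05 (SE), adjusted p = 0.00377). Rragd, a Rag GTPase of amino acid signalling at the lysosome, rose from 23.4 ± 0.700 to 28.04 ± 1.10 (log2 fold change 0.25, adjusted p = 0.00651). Atoh8, a basic helix-loop-helix factor, rose from 6.37 ± 0.819 to 9.01 ± 1.41 (log2 fold change 0.44, adjusted p = 0.0472, 2 of 8). It was the 1 limma call among 16 tested genes of a TGF-beta and BMP list, 13 of which were higher with a median of 0.10. That list holds ligands (such as Tgfb1 and Tgfb2) and receptors (such as Tgfbr1 and Bmpr2) beside targets, so its count is not one of targets alone. The BMP readouts Id2 (10.4 ± 0.955 to 12.8 ± 0.941; log2 fold change 0.28, adjusted p = 0.0502) and Id3 (65.3 ± 1.85 to 78.9 ± 8.81; log2 fold change 0.26, adjusted p = 0.0601), named after their values were seen, did not pass the limma test, while the authors' deposited table called Id3 (log2 fold change 0.27, q = 0.00882).

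Bhlhe40, Cdkn1a and Hdac9 were among the regulators that fell. Bhlhe40, a transcriptional repressor that feeds into the circadian clock, measured 9.41, 12.1, 11.7 and 10.7 FPKM with CON-BDEV and 17.7, 14.3, 15.6 and 16.8 with Vehicle (log2 fold change −0.52 ± 0.08 (SE), adjusted p = 0.00732). It was the 1 limma call among 17 clock genes, whose median was −0.02. The authors' deposited table called a further clock gene, Arntl (log2 fold change −0.30, q = 0.00505), which missed the limma threshold here (−0.27, adjusted p = 0.0629). Cdkn1a encodes p21, an inhibitor of cyclin-dependent kinases, and measured 21.7, 28.6, 26.5 and 23.9 against 36.3, 30.7, 34.01 and 33.4 FPKM (log2 fold change −0.41 ± 0.08 (SE), adjusted p = 0.0201, 4 of 8). It too was the 1 limma call of its list, among 23 p53 targets with a median of −0.03, of which the authors' table called 2, the other being Sesn2 (log2 fold change 0.35 there). In both genes CON-BDEV replicate 1 was the lowest library and replicate 2 the highest of the treated. Hdac9, a class IIa histone deacetylase, measured 7.94, 7.27, 8.29 and 7.07 against 10.4, 10.5, 10.9 and 10.7 FPKM (log2 fold change −0.43 ± 0.05 (SE), adjusted p = 0.00206). Klf6 (24.3 ± 0.556 to 21.6 ± 0.765; log2 fold change −0.17, adjusted p = 0.034, 2 of 8), the ERK phosphatase Dusp4 (135 ± 5.30 to 118 ± 5.49; log2 fold change −0.19, adjusted p = 0.0283, 3 of 8) and Phlda1 (77.3 ± 1.72 to 67.4 ± 3.73; log2 fold change −0.19, adjusted p = 0.0279, 4 of 8) also fell, the last pair being the calls among 18 ERK feedback genes (median −0.05).

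Of the genes that limma called outside the lipid lists, Fam129a and Idh1 fell most on the log2(FPKM + 1) scale. The authors' deposited table called larger falls than that of Idh1 in some genes that missed the limma threshold, among them Spp1 (−1.37), Sqrdl (−0.82) and Ndrg1 (−0.72), named after their values were seen; their limma adjusted p was 0.18, 0.117 and 0.156. Fam129a, a stress-responsive gene also called Niban (mm9 chr1:153418503-153566477), measured 6.98, 10.2, 9.01 and 7.35 FPKM with CON-BDEV and 18.1, 12.99, 14.5 and 13.5 with Vehicle (log2 fold change −0.75 ± 0.12 (SE), adjusted p = 0.00753). Idh1, the cytosolic isocitrate dehydrogenase that makes NADPH (chr1:65205190-65233053), measured 41.01, 41.9, 44.8 and 33.6 against 64.9, 59.6, 63.4 and 60.5 (log2 fold change −0.62 ± 0.07 (SE), adjusted p = 0.00169). Neither gene's groups overlapped, and CON-BDEV replicate 4 was the lowest Idh1 library. The 2 changes were near in size to those of the lipid reference genes Lpin1 (−0.75), Lss (−0.79) and Fdps (−0.81). Rdh11, a retinol dehydrogenase, measured 29.7, 30.5, 30.1 and 30.2 against 37.9, 40.5, 39.8 and 39.7 FPKM (log2 fold change −0.38 ± 0.03 (SE), adjusted p = 0.000443). All 4 treated Rdh11 values lay below all 4 Vehicle values.

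Smaller falls covered other steps of metabolism. Echdc1, which clears ethylmalonyl-CoA, fell from 5.94 ± 0.235 to 3.97 ± 0.318 FPKM (log2 fold change −0.48, adjusted p = 0.00224, overlapping Rnf146), and Pdp2, a phosphatase that activates pyruvate dehydrogenase, from 9.67 ± 0.276 to 6.80 ± 0.997 (log2 fold change −0.46, adjusted p = 0.0135). The aldo-keto reductase Akr1b7 fell from 1.92 ± 0.292 to 0.954 ± 0.157 (log2 fold change −0.58, adjusted p = 0.0111), and reads shared with its close relatives could affect that value. Ucp2, a mitochondrial carrier, measured 155, 153, 153 and 128 against 201, 184, 188 and 185 FPKM (log2 fold change −0.37 ± 0.06 (SE), adjusted p = 0.00732), replicate 4 standing below the other treated libraries. With the acyl-CoA thioesterase Acot2 (6.45 ± 0.215 to 5.04 ± 0.354; log2 fold change −0.30, adjusted p = 0.0158, 6 of 8) it made 2 falls among 30 genes of fatty acid oxidation, mitochondrial carriers and peroxisomes (median −0.03). In serine and folate metabolism 3 of 23 genes fell, beside 1.82% of all genes tested, none rose and the median was −0.03. Shmt2, the mitochondrial serine hydroxymethyltransferase, measured 157, 183, 178 and 173 against 207, 195, 211 and 209 FPKM (log2 fold change −0.25 ± 0.04 (SE), adjusted p = 0.0156, 5 of 8, overlapping Ndufa4l2). Phgdh and Psat1, which make serine from a glycolytic intermediate, fell from 314 ± 6.78 to 270.5 ± 20.03 (log2 fold change −0.22, adjusted p = 0.0317, 2 of 8) and from 261 ± 5.43 to 236 ± 7.28 (log2 fold change −0.14, adjusted p = 0.0264, 3 of 8). In each of the 3 serine genes CON-BDEV replicate 1 was the lowest library. Of 33 genes of glycolysis and the hypoxia response, Hif1a (log2 fold change −0.17, adjusted p = 0.0139, 5 of 8) and the brain aldolase Aldoc (1.72 ± 0.133 to 1.04 ± 0.211 FPKM; log2 fold change −0.42, adjusted p = 0.0401, 1 of 8) fell, and the collagen prolyl hydroxylase P4ha2 rose (log2 fold change 0.17, adjusted p = 0.0228, 3 of 8). The transketolase Tkt (log2 fold change −0.17, adjusted p = 0.0219, 4 of 8) and the hexosamine enzyme Uap1 (log2 fold change −0.19, adjusted p = 0.0166, 4 of 8) fell.

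**Figure D3:**
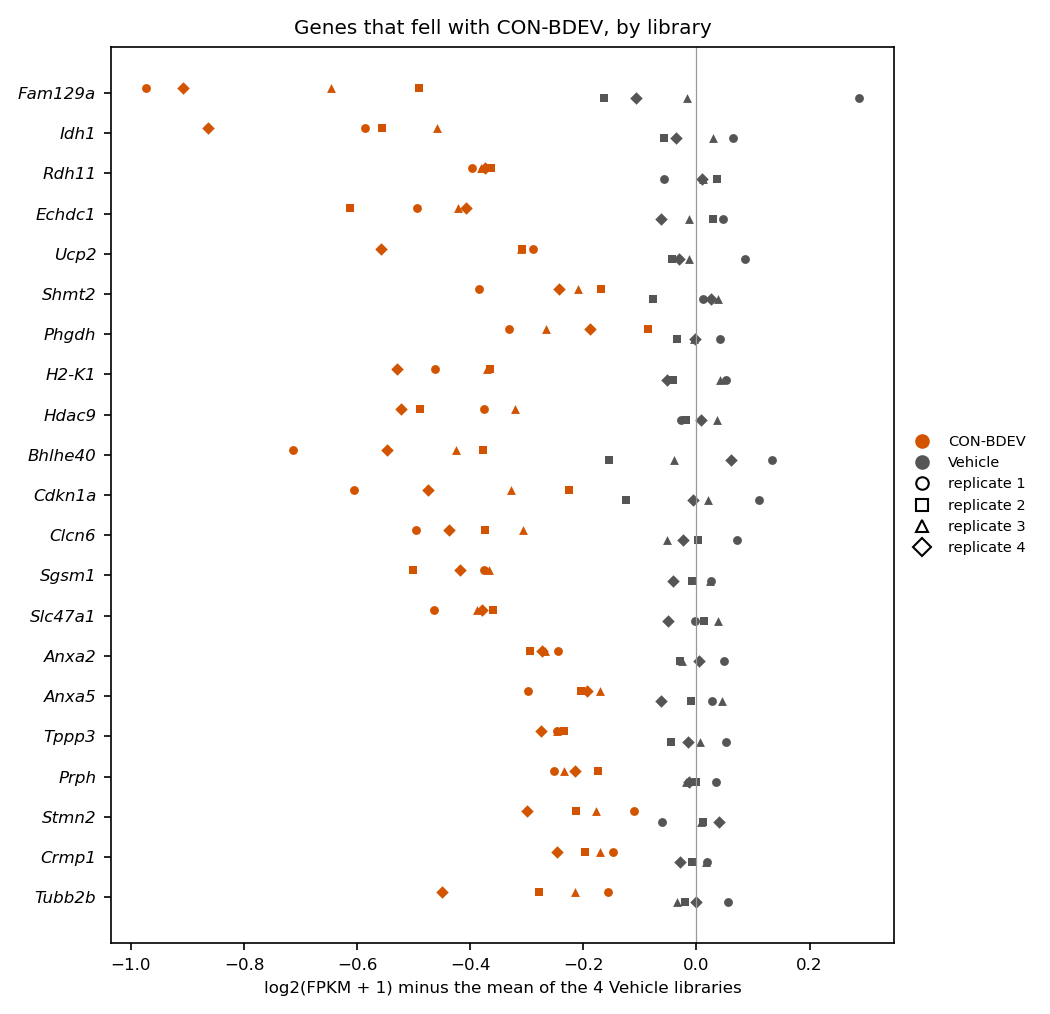
Log2(FPKM + 1) of 21 genes that fell, in each library, minus the mean of the 4 Vehicle libraries (x axis), with CON-BDEV in orange, Vehicle in grey and the marker shape giving the replicate number. Every orange point of a gene lies to the left of its grey points, and Fam129a and Idh1 reach farthest.

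Genes of the neuronal cytoskeleton were lower as a group. Of 23 tested members 5 fell, 1 rose and 18 were lower, and the median was −0.08. Of all genes tested, 1.82% fell and 1.02% rose. Peripherin Prph, the intermediate filament of peripheral neurons, measured 705, 744, 713 and 723 FPKM with CON-BDEV and 859, 839, 828 and 831 with Vehicle (log2 fold change −0.22 ± 0.02 (SE), adjusted p = 0.00126). The collapsin response mediator Crmp1 fell from 139 ± 2.18 to 122 ± 3.57 (log2 fold change −0.19, adjusted p = 0.00569) and Dpysl2, of the same family and named after its values were seen, from 21.5 ± 0.555 to 19.1 ± 0.394 (log2 fold change −0.16, adjusted p = 0.0294, 3 of 8). The neuronal tubulin Tubb2b (89.3 ± 2.50 to 73.8 ± 6.41; log2 fold change −0.27, adjusted p = 0.0257, 4 of 8) and the tubulin-binding Stmn2 (158 ± 4.69 to 138 ± 7.54; log2 fold change −0.20, adjusted p = 0.0257, 3 of 8) fell as well. Summed FPKM of the list was 4464 to 4617 with CON-BDEV and 4845 to 4979 with Vehicle, and near-identical tubulin copies could share reads. The single rise was Nrep, named after its values were seen (15.2 ± 0.457 to 18.9 ± 2.09; log2 fold change 0.29, adjusted p = 0.0401, 2 of 8). Outside the list, the tubulin-associated Tppp3 measured 179, 181, 179 and 176 against 220.4, 206, 214 and 211 FPKM (log2 fold change −0.25 ± 0.03 (SE), adjusted p = 0.000952), and the intermediate filament protein Sync fell (4.13 ± 0.464 to 2.69 ± 0.541; log2 fold change −0.48, adjusted p = 0.0426, 1 of 8), where the authors' table did not call it.

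Transcripts of an MHC class I chain, 2 annexins and 3 genes of endocytosis were lower, as were several genes of other roles. H2-K1, a heavy chain of mouse MHC class I, measured 40.4, 43.3, 43.1 and 38.5 FPKM with CON-BDEV and 58.1, 54.4, 57.7 and 53.98 with Vehicle (log2 fold change −0.43 ± 0.04 (SE), adjusted p = 0.000887). The groups lay more than 10 FPKM apart. It was the 1 call, by limma and in the authors' table, among 16 genes of antigen presentation, whose median was −0.05, and its reads could be shared with other class I genes. A further class I heavy chain, H2-D1, named after its values were seen, was lower without overlap but missed the limma threshold (90.3 ± 1.76 to 80.2 ± 5.44 FPKM, log2 fold change −0.17, adjusted p = 0.0687). Annexins bind membranes in the presence of calcium. Anxa2 measured 65.05, 62.8, 64.01 and 63.8 against 79.9, 75.7, 75.9 and 77.5 FPKM (log2 fold change −0.27 ± 0.03 (SE), adjusted p = 0.000887), and Anxa5 58.6, 62.6, 64.1 and 63.1 against 73.7, 71.8, 74.6 and 69.1 (log2 fold change −0.22 ± 0.04 (SE), adjusted p = 0.0104). They were the 2 calls among 14 annexin and S100 genes, of which 11 were lower, with a median of −0.11. Of 43 genes of endocytosis and vesicle formation, 3 fell and none rose (median −0.03): the lipoprotein receptors Scarb1 (60.5 ± 0.321 to 53.5 ± 2.42; log2 fold change −0.18, adjusted p = 0.0228, 3 of 8) and Lrp8 (13.5 ± 0.311 to 11.7 ± 0.415; log2 fold change −0.19, adjusted p = 0.0294, 2 of 8), and the ESCRT component Stam (31.8 ± 0.761 to 28.4 ± 1.11; log2 fold change −0.16, adjusted p = 0.0403, 2 of 8). Scarb1 and Lrp8 take up or bind lipoproteins, and the list is one of uptake in general. Sgsm1, a regulator of small GTPases, measured 12.3, 11.2, 12.3 and 11.9 against 16.5, 16.1, 16.5 and 15.7 FPKM (log2 fold change −0.42 ± 0.04 (SE), adjusted p = 0.000887). The organic cation exporter Slc47a1 fell from 10.6 ± 0.298 to 7.76 ± 0.275 (log2 fold change −0.40, adjusted p = 0.000954), the matrix proteoglycan Optc from 4.52 ± 0.390 to 3.02 ± 0.388 (log2 fold change −0.46, adjusted p = 0.0156, 5 of 8), selenoprotein Sepw1 from 136 ± 2.02 to 115 ± 1.22 (log2 fold change −0.24, adjusted p = 0.000887) and Fam173a from 18.6 ± 0.616 to 14.3 ± 0.559 (log2 fold change −0.36, adjusted p = 0.00126).

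Of the cell-cycle genes, some of DNA replication rose by small amounts, and no mitotic gene was called. Of 58 genes of DNA replication 5 rose, none fell, 44 were higher and the median was 0.05. Of all genes tested, 1.02% rose. Named by the rule were Dtl (44.6 ± 0.638 to 49.1 ± 1.07 FPKM; log2 fold change 0.14, adjusted p = 0.0296, 2 of 8), the clamp loader subunit Rfc4 (24.4 ± 1.18 to 28.5 ± 1.59; log2 fold change 0.22, adjusted p = 0.0392, 1 of 8, overlapping Eif4a2), the origin factor Mcm10 (37.1 ± 0.565 to 41.5 ± 1.75; log2 fold change 0.16, adjusted p = 0.0403, 1 of 8) and the exonuclease Exo1 (15.6 ± 0.304 to 17.5 ± 0.330; log2 fold change 0.15, adjusted p = 0.0404, 1 of 8). All 4 calls were lost in most fits with a library left out, and the authors' table called none of the 58. Of 58 mitotic genes limma called none, the authors' table called none, 41 were lower and the median was −0.05. An unadjusted p under 0.05 was found in 11 of them, beside 2166 of all 11320 genes tested. The topoisomerase Top2a measured 262, 225, 244 and 228 against 256, 251, 245 and 253 FPKM. Among 9 tested genes of a list of cyclin-dependent kinase inhibitors, D cyclins and the proteins they act through (Cdk4, Rb1, Rbl1 and Rbl2), which does not hold Cdkn1a, described above as falling, limma called none, with 2 at an unadjusted p under 0.05 and none in the authors' table; Ccnd1 measured 108, 105, 106 and 105 against 109, 112, 112 and 112 FPKM.

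Ribosomal proteins shifted down by a few percent. Of 82 genes 76 were lower, 4 fell, none rose and the median was −0.04. Rps20 measured 1037, 1094, 1055 and 1091 FPKM with CON-BDEV and 1194, 1169, 1152 and 1153 with Vehicle (log2 fold change −0.13 ± 0.03 (SE), adjusted p = 0.0264, 3 of 8). Rpl28 (log2 fold change −0.11, adjusted p = 0.0401, 1 of 8), Rpl4 (log2 fold change −0.09, adjusted p = 0.0455, 2 of 8) and Rpl13a (log2 fold change −0.12, adjusted p = 0.0482, 1 of 8) fell as well, and the many processed copies of these genes could take some of their reads. FPKM are shares of a library, so values this close to the median of all genes depend on the scaling; with each library scaled to its median gene the list's median stayed at −0.04. Wars, the tryptophan tRNA synthetase, fell from 76.4 ± 3.31 to 63.6 ± 4.13 (log2 fold change −0.26, adjusted p = 0.0166, 4 of 8), and 18 of 22 synthetases were lower (median −0.03). The ER chaperone calreticulin, Calr, rose from 483 ± 1.68 to 545 ± 23.7 FPKM (log2 fold change 0.17, adjusted p = 0.014, 7 of 8), and the ER selenoprotein Selk fell (66.96 ± 1.98 to 59.1 ± 2.40; log2 fold change −0.18, adjusted p = 0.0266, 3 of 8); these were the calls among 34 ER genes. The mitochondrial chaperone Hspa9 fell (387 ± 5.78 to 351 ± 12.2; log2 fold change −0.14, adjusted p = 0.0271, 2 of 8), as 1 of 31 heat shock genes. Ferritin light chain Ftl1 rose from 1789 ± 42.04 to 1987 ± 68.3 FPKM (log2 fold change 0.15, adjusted p = 0.0228, 4 of 8), the 1 rise among 32 NRF2 targets, of which Tkt was the 1 fall.

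Several pathways showed no gene past the limma threshold. Their counts at an unadjusted p under 0.05 stand beside 2166 of all 11320 genes tested. Nuclear genes of oxidative phosphorylation had 0 of 76 called, 10 at an unadjusted p under 0.05, none in the authors' table and a median of 0.0064; Atp5b measured 1662, 1600, 1619 and 1594 against 1634, 1657, 1653 and 1651 FPKM. Lysosomal genes had 0 of 46 called, 5 at an unadjusted p under 0.05 and none in the authors' table, and the membrane protein Lamp1 measured 302, 298, 297 and 310.2 against 287, 286, 289 and 279. Interferon-response genes had 0 of 27 called, 4 at an unadjusted p under 0.05 and none in the authors' table. For NF-kB and inflammatory genes the counts were 0 of 20, 7 and 0, with a median of −0.08. For ATF4 targets they were 0 of 24, 7 and 4; Atf4 itself measured 543, 691, 662 and 646 with CON-BDEV and 666, 668, 679.8 and 676 with Vehicle, replicate 1 being the lowest treated library, and Trib3, a target, 43.9, 115, 79.5 and 82.5 and 76.8, 68.8, 70.6 and 69.3. The treated libraries thus spread far wider than Vehicle in Trib3, on both sides of it. The Wnt (0 of 17, 1 and 0), Notch (0 of 13, 2 and 0) and PI3K, FOXO and insulin lists (0 of 23, 2 and 0) also held no call.

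**Figure D4:**
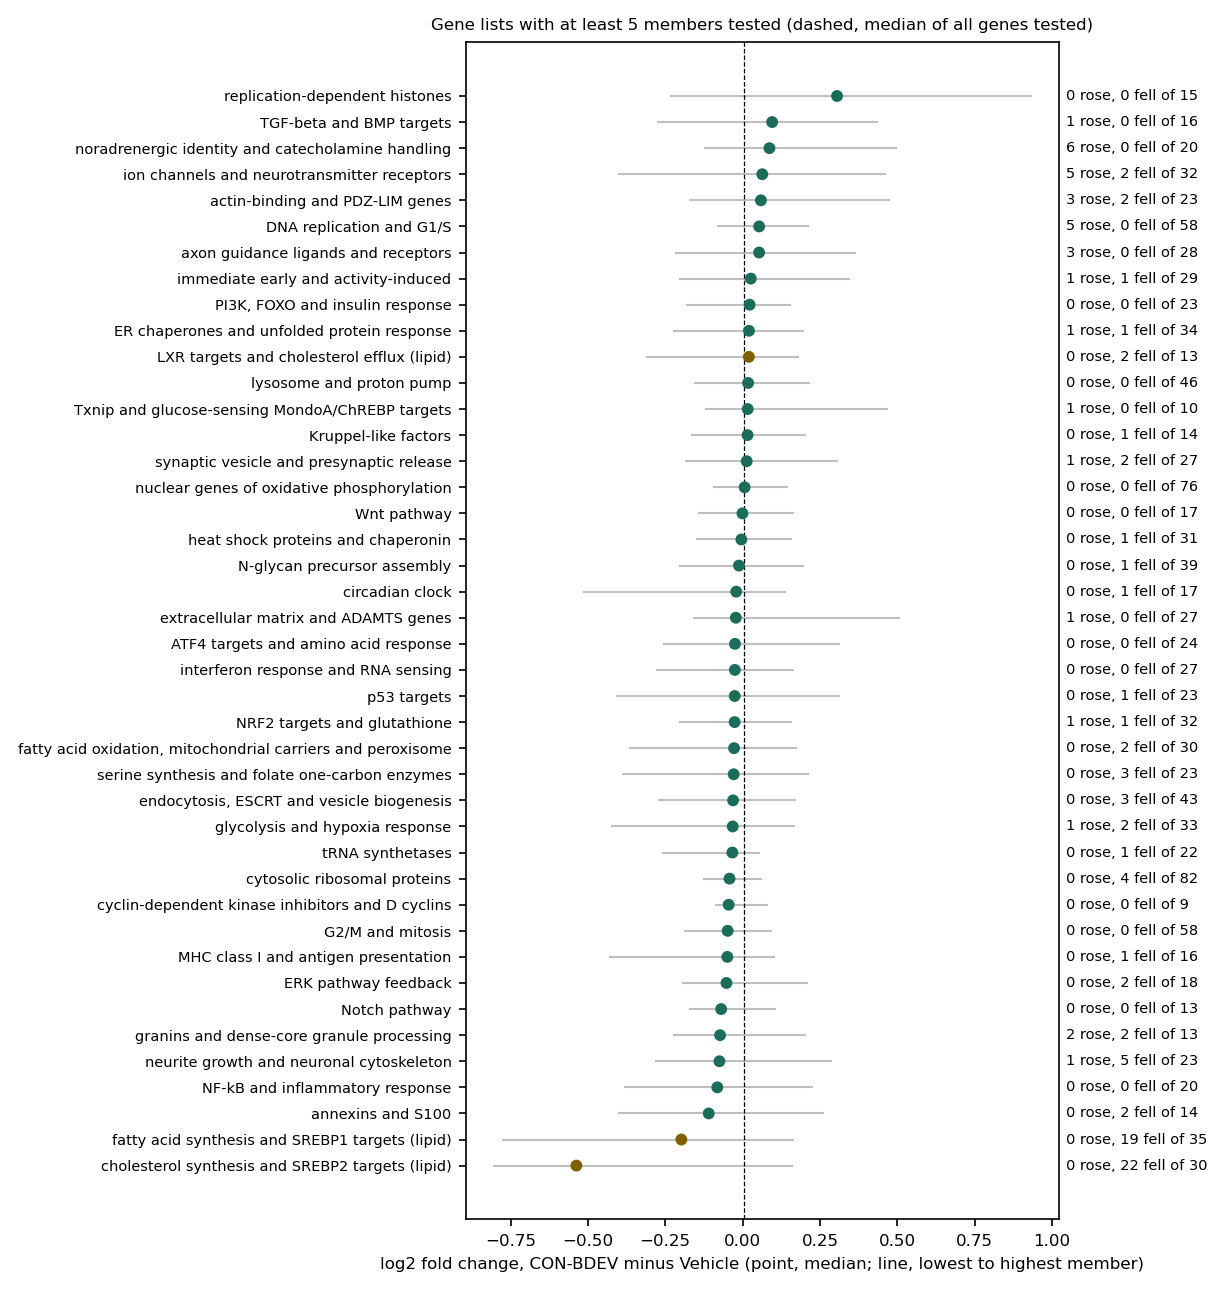
Median log2 fold change of each gene list with at least 5 members tested (point) and the range from its lowest to its highest member (line), CON-BDEV minus Vehicle on log2(FPKM + 1), with the members that rose and fell at the right. The lipid lists are brown, and the dashed line is the median of all 11320 genes tested, 0.0043. As examples, the noradrenergic list lies at 0.09 with 6 of 20 rising and the annexin list at −0.11 with 2 of 14 falling. The medians of the replication-dependent histones and of the galectins, given under Other observations, were larger in size.

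Sequence just upstream of the start site is shown for 4 genes with large changes in which one of 4 searched motifs occurred, because such motifs bind factors of cyclic AMP, amino acid, sterol and growth signalling. The 250 bases before the start listed by RefSeq (GRCm38.p6, a later build than the mm9 of the expression tables) were searched on both strands, and a promoter was matched for 9105 of the 11320 genes, or 80.4%. The CCAAT box was also searched but only counted, and it is not marked. Atoh8 and Pdp2, each with 1 E-box (at −230 and −219), are not shown. The other promoters examined for the genes with the largest rises and falls held none of the 4 motifs. Capitals mark the 4 motifs, and positions count back from −1, the base before the start. Pdlim3, which rose (chr8:45885237-45885486, plus strand), holds a cyclic AMP element (TGACGTCA) at −48 and an amino acid response element (TGATGNAAN) at −197. Gadd45g, which rose (chr13:51846425-51846674, plus strand), holds an E-box (CACGTG) at −142 and an amino acid response element, on the other strand, at −102. Clcn6, which fell (chr4:148038814-148039063, minus strand), holds E-boxes at −48 and −25. Aldoc, which fell (chr11:78322823-78323072, plus strand), holds the core of a sterol regulatory element (TCACNCCAC) at −80.
Pdlim3: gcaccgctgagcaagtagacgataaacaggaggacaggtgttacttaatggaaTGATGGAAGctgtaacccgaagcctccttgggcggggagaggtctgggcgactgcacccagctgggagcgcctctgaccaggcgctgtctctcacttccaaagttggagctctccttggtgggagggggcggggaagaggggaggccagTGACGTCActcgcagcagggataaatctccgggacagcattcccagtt
Gadd45g: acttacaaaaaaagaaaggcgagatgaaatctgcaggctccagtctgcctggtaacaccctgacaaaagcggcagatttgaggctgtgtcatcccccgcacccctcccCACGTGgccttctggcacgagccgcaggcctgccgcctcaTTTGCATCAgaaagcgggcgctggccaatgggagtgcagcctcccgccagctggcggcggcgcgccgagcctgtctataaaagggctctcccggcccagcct
Clcn6: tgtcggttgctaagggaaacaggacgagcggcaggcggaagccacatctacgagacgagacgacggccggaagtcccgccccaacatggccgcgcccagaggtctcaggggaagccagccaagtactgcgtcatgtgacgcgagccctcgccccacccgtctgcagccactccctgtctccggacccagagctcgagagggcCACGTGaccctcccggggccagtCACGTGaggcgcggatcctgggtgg
Aldoc: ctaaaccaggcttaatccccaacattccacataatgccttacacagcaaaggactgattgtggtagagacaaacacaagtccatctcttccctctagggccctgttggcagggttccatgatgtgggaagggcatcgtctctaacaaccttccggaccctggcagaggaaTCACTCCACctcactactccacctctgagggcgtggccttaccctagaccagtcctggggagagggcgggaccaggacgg
Among all 9105 promoters searched, 2.99% held the cyclic AMP element, 1.98% the amino acid response element, 8.64% the E-box, 0.857% the sterol element core and 37.3% a CCAAT box, some positions lying in more than one motif. Promoters were matched for 78.8% of the 278 called genes, under the 80% set for comparing shares, so no share is given for them. A match is a string of letters and no evidence that a factor was bound.

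No gene was particular to CON-BDEV by the test of the difference between the vesicle groups. In a limma fit of all 12 libraries, CON-BDEV minus SE-BDEV had 0 of 11312 genes past the threshold (0.0%), the smallest adjusted p being 0.643, with 296 genes at an unadjusted p under 0.05. Dbh measured 6.25, 6.95, 7.59 and 6.48 FPKM in SE-BDEV replicates 1 to 4, a difference of −0.01 (95% interval −0.17 to 0.16) on the log2 scale. Htr3a measured 108, 104, 113 and 110.5, a difference of 0.02 (95% interval −0.06 to 0.10). Idh1 measured 43.5, 33.95, 33.3 and 48.2, a difference of 0.03 (95% interval −0.20 to 0.26). In these 3 genes the interval holds 0 and ends short of the size of the CON-BDEV change from Vehicle. Over the 88 named genes the difference ran from −0.11 to 0.31, and for 85 of them the whole interval was smaller in size than the gene's own change from Vehicle; the same CON-BDEV libraries enter both numbers, and the genes were chosen on them. A p that misses the threshold does not show that the vesicles acted alike, and the median half-width of the intervals over the 278 genes was 0.11.

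**Figure D5:**
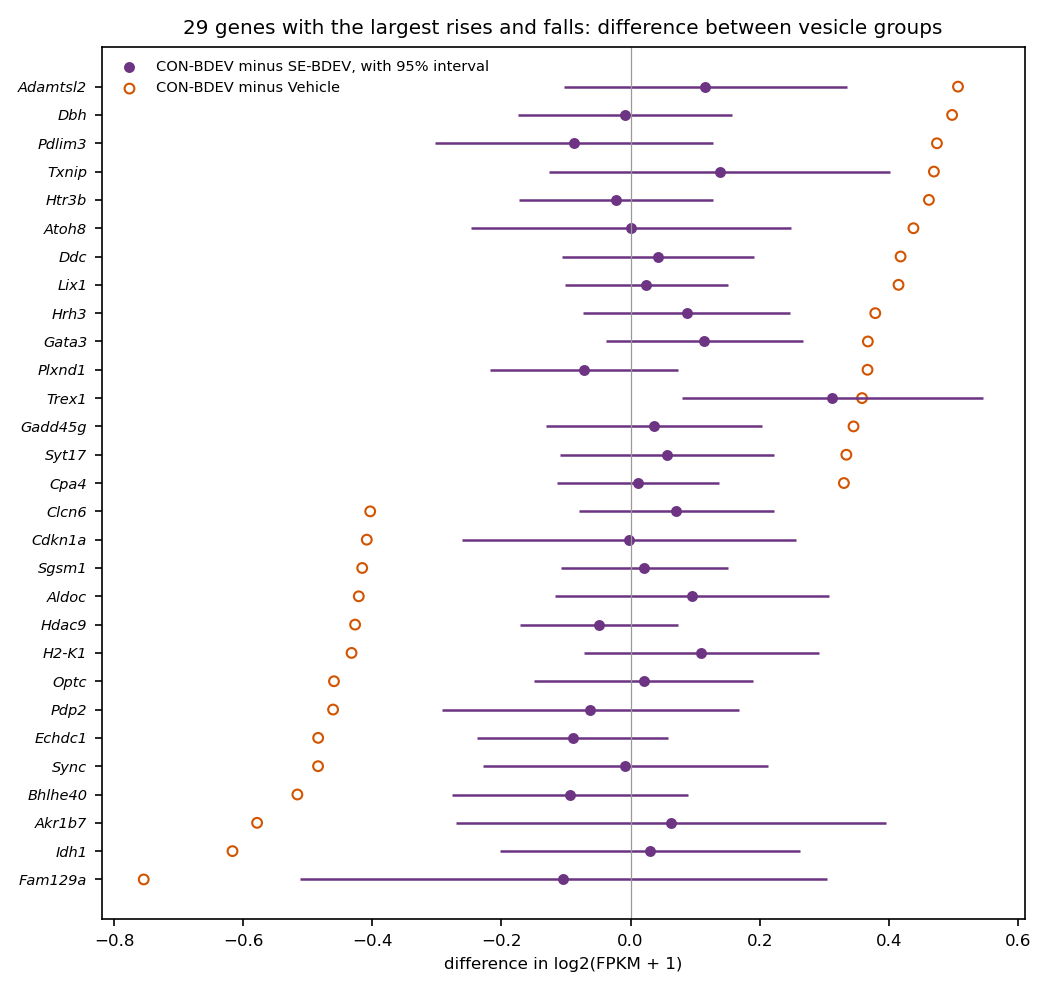
For 29 genes with the largest rises and falls, the difference in log2(FPKM + 1) between CON-BDEV and SE-BDEV (purple points, lines for the 95% interval) and between CON-BDEV and Vehicle (orange circles). Purple intervals span 0 for 28 of the 29 genes, the exception being Trex1, whose adjusted p was 0.9999.

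The largest difference from SE-BDEV among the named genes was in Trex1. It measured 5.60, 6.09, 5.29 and 6.59 FPKM with CON-BDEV, 3.44, 4.48, 5.02 and 5.42 with SE-BDEV and 4.89, 3.65, 4.65 and 4.34 with Vehicle, and the difference between the vesicle groups was 0.31 (95% interval 0.08 to 0.55) with an unadjusted p of 0.0124. Of the 278 genes 6 had an unadjusted p under 0.05 in this contrast, the others being Ptprn2 and, named after their values were seen, Lgals9 (3 of 8), Ccdc64 (2 of 8), Tchp (3 of 8) and Anapc13 (3 of 8). None passed after adjustment, and the call of Trex1 against Vehicle itself held in 1 of 8 fits with a library left out.

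The authors' deposited table of the same comparison called 215 of 11912 genes (1.8%), of which 180 lie outside the lipid lists, 76 rising and 104 falling. Of these, 105 are among the 278 called here, 58.3% of the authors' calls and 37.8% of those here, and all 105 had the same direction in both. Dbh, Htr3a, Adamtsl2, Fam129a, Idh1 and H2-K1 are called in both. Called here but not by the authors are, among others, Chgb, Chga, Scg2, Ptprn2, Phox2a, Prph and Crmp1. The same holds for Scarb1, Lrp8 and Stam and for the ribosomal Rps20, Rpl28, Rpl4 and Rpl13a. No gene switched on or off: 5 genes were at 0 in all Vehicle libraries and above 0 in all CON-BDEV libraries, reaching at most 0.142 FPKM, and 7 the reverse, reaching at most 0.176 FPKM.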

How the data were processed

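RNA from N2a cells was sequenced as polyA-selected, strand-marking libraries, per the labels' protocols. TopHat2 and Cuffdiff with build mm9 are named without version or role in the submitters' processing notes; annotation, strand setting and between-library scaling: not given in the sources used here. The authors deposited FPKM per gene and library and a table with a log2 fold change, a test statistic (a score), a p-value and a q-value for each gene. No count table was used, so depth is approximate: it was estimated from the steps of FPKM at or under 0.05 in genes of 1500 to 8000 bases.

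The two-sided tests used limma 3.58.1 (R 4.3.3, empirical Bayes with a trend) on log2(FPKM + 1) for genes whose mean reached 1 FPKM, with Benjamini-Hochberg adjustment over all 11320 genes and a threshold of 0.05. The difference from SE-BDEV came from 1 fit of all 12 libraries, whose Vehicle columns are those of both tables. The code was tested on simulated data. Gene starts of the deposited loci count from 0 and were raised by 1.

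The comparison, its 47 gene lists (44 not lipid) and the tests were chosen with earlier results of these data known; 10 further lists were written after values were seen. The lipid lists were written anew. Named genes were the called genes outside the lipid lists, leaving out predicted, short-RNA and multiple-name rows, that had 1 of the 15 largest rises or falls or 1 of the 10 smallest p in a direction, or that were among the first 4 calls of a list; a list with no call gives up to 3 of its highest members. The alternatives tried were other pseudocounts, filters, scalings and variance settings, a fit of 12 libraries, the replicate number as a block, and leaving out each library. The authors' SE-BDEV test table was not used here. Some named genes are not reported here.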

Additional observations from a re-analysis of the deposited data

Results flagged for a closer look

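In groups of 4 libraries, the highest or lowest value was set apart from the others by Dixon's ratio at the 95% level in 8 of 272 groups checked, over 136 genes; chance gives about 1 in 20 such groups. Of genes that changed, Dbh in Vehicle replicate 1 was the lowest of its group at 3.87 FPKM, where the others lay at 4.67 to 4.77. Ucp2 in CON-BDEV replicate 4 was lowest at 128 FPKM, the others at 153 to 155. Klf6 in Vehicle replicate 3 was highest at 25.1 FPKM, the others at 24.0 to 24.1. For the ribosomal gene Rpl4, CON-BDEV replicate 2 was highest at 1320 FPKM, the others near 1280. For Rpl13a, CON-BDEV replicate 3 was highest at 956 FPKM, the others at 925 to 930. Lpin1, of the lipid reference genes, was highest in Vehicle replicate 1 at 13.4 FPKM, the others at 12.1 to 12.3. Of genes that did not pass the test, Stat3 was lowest in CON-BDEV replicate 4 at 27.8 FPKM (31.5 to 32.2 in the others), and the pericyte marker Pdgfrb was highest in CON-BDEV replicate 2 at 2.87 FPKM (1.70 to 1.86). In each called gene listed, the set-apart library stayed on its own group's side, and the causes were not tested.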

How the results depend on the processing

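The counts of called genes were 321 in all and 278 outside the lipid lists. No named gene changed direction under any alternative run. The counts, in all and outside the lipid lists, were 347 and 305 when the mean had to reach 5 FPKM, 324 and 281 with each library scaled to its median gene, 325 and 282 with a pseudocount of 0.1, 327 and 284 with 0.5, and 348 and 305 with robust variance shrinkage. They were lower in a fit of all 12 libraries (133 and 100, all 100 among the 278), with no filter on low values (176 and 139, 132 shared), and with no variance trend (183 and 145, 136 shared); the no-filter fit tests 17406 genes, and for the other fits the cause was not tested. The authors' table called 215 and 180. Leaving out each library in turn gave 134 to 556 calls in all and 97 to 512 outside the lipid lists, on fewer samples. The deviations of same-numbered libraries of the groups correlated at −0.0621 to 0.0118, and those of other pairs at −0.0684 to 0.095. With 4 libraries a group, this does not settle whether the numbers mark a shared culture or day. With the replicate number as a block the counts were 135 and 99 (92 shared), and 46 of the 88 named genes passed. The difference between the vesicle groups gave 0 calls among the named genes in each alternative run. The 95% intervals of that difference had a median half-width of 0.11 on the log2 scale over the 278 genes. Of genes at 1 to 5 FPKM 1.03% were called, and of those at 100 FPKM or more 5.04%.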

Other observations

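Some gene families noticed only after their values were seen held several falls. As above, "of 8" counts the fits with a library left out that kept a call. Of 19 tested genes that handle acyl-CoA, 6 fell and none rose (median −0.05), among them the long-chain acyl-CoA synthetases Acsl4 (116 ± 3.88 FPKM in Vehicle to 96.6 ± 5.12 in CON-BDEV, SD, n = 4; log2 fold change −0.26, adjusted p = 0.0066) and Acsl3 (36.98 ± 0.682 to 32.6 ± 1.21; log2 fold change −0.18, adjusted p = 0.0212, 4 of 8) and the acyl-CoA binding protein Dbi (168 ± 3.72 to 141 ± 9.97; log2 fold change −0.25, adjusted p = 0.0174, 5 of 8). Of 9 tested genes in a list of NADPH-making and related enzymes, some of which also use NAD, 3 fell and none rose (median −0.10). They were Idh1, malic enzyme Me1 (54.3 ± 1.52 to 48.6 ± 1.51, log2 fold change −0.16, adjusted p = 0.0318, 2 of 8) and glutamate dehydrogenase Glud1 (48.2 ± 0.574 to 41.2 ± 2.29, log2 fold change −0.22, adjusted p = 0.0135, 7 of 8). All 4 class IIa histone deacetylases were lower, and Hdac9 and Hdac5 (23.9 ± 1.27 to 20.8 ± 0.827; log2 fold change −0.19, adjusted p = 0.0469, 1 of 8) fell. The mitochondrial protease Lonp1 fell from 112 ± 7.23 to 87.1 ± 8.23 FPKM (log2 fold change −0.36, adjusted p = 0.0139), one of 3 falls among 16 mitochondrial proteases and chaperones (median −0.02).

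Genes of the membrane cytoskeleton gave both directions. Arpc1b, of the actin branching complex, fell from 87.03 ± 2.13 to 71.7 ± 3.38 FPKM (log2 fold change −0.28, adjusted p = 0.00335), moesin Msn from 70.3 ± 0.833 to 60.99 ± 0.873 (log2 fold change −0.20, adjusted p = 0.00239) and thymosin Tmsb4x from 225 ± 5.83 to 199 ± 8.90 (log2 fold change −0.18, adjusted p = 0.0228, 3 of 8), while Brk1 (5 of 8) and Wdr1 (1 of 8) rose among the 21 tested (median 0.01). The septin Sept5 fell from 124 ± 2.97 to 102 ± 7.36 (log2 fold change −0.29, adjusted p = 0.00879), and Sept6 fell (log2 fold change −0.16, adjusted p = 0.0219, 2 of 8), of 9 septins with a median of −0.08. Galectin Lgals1 fell from 1411 ± 40.3 to 1226 ± 25.2 FPKM (log2 fold change −0.20, adjusted p = 0.00335), one of 2 falls among 6 galectins (median −0.17). Dusp10 (5 of 8), Dusp4 (3 of 8) and Dusp3 (3 of 8) fell among 14 dual-specificity phosphatases (median −0.09), and Txnrd3, Sepw1 and Selk (3 of 8) among 17 selenoproteins (median −0.08). Because these families were picked for their values, their counts are descriptions only.

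Replication-dependent histones, whose messages lack a polyA tail and are captured poorly in polyA libraries, had a median log2 fold change of 0.30 over 15 tested of 41 listed, with 12 higher. None passed the limma test, 5 had an unadjusted p under 0.05, and the authors' table called 1. Hist1h1c measured 25.7, 36.1, 25.2 and 30.5 FPKM with CON-BDEV and 25.3, 24.4, 23.2 and 20.8 with Vehicle (log2 fold change 0.30, adjusted p = 0.136), and the summed level was 81.3 to 112 against 63.9 to 80.6 FPKM.

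Among the 278 called genes, 13 pairs lay within 100000 bases of each other on mm9, and 11 pairs moved in the same direction; this was not compared with other genes. Adamtsl2 and Dbh, which rose, lie 56893 bases apart on chromosome 2. Htr3a and Htr3b, which rose, lie 23908 bases apart on chromosome 9. Akr1b10 (2 of 8) and Akr1b7, which fell, lie 15412 bases apart on chromosome 6.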
